A study of Mus musculus with 4 samples.

Results

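Transcripts of 37 cell cycle genes were followed in mouse periodontal ligament (labelled PDL), the tissue between tooth root and jaw bone. The genes came from a chosen list of regulators of DNA replication and mitosis, and each was read from its brightest named probe. All 37 were found among the 22911 genes that the arrays named. The 4 groups were wild type (WT) and Mkx knockout (Mkx-KO) mice at 10 weeks and at 4 weeks of age, with 1 one-colour array each. Mkx encodes the homeobox factor Mohawk of tendon and ligament. The labels give neither the strain, the sex and the number of mice behind an array nor how the knockout was made. With 1 array per group the differences describe these 4 RNA preparations, and their number limits the precision.

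The cell cycle is driven by cyclins, which rise and fall, and by the kinases they switch on. Factors of the E2F family, held back by the retinoblastoma protein until a cell commits to divide, switch on genes of replication. Genes of mitosis follow later and are held silent in resting cells by the DREAM complex. The periodontal ligament holds fibroblasts that renew slowly, next to bone, marrow, blood vessels and gum epithelium, which contain dividing cells of their own.

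Short promoter stretches of 6 genes are shown because they hold letter matches to elements known to bind the E2F, DREAM and NF-Y factors of cell cycle promoters. The 170 bases before the annotated start are given from RefSeq (build GRCm38.p6), 5′ to 3′ on the strand of the gene. Capitals mark the CHR element (TTTGAA), the CCAAT box (CCAAT) and E2F sites (TTTCCCGC, TTTCGCGC, TTTGCCGC or TTTGGCGC), each on either strand. The replication genes Mcm5 (chr8:75109339-75109508, plus strand) and Mcm6 (chr1:128359706-128359875, minus strand) carry E2F sites and CCAAT boxes. In both, E2F matches on opposite strands overlap and print as 1 block of capitals.
Mcm5: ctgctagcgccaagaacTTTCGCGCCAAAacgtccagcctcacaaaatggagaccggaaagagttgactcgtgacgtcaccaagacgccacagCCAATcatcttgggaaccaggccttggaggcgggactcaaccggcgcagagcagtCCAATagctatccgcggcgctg
Mcm6: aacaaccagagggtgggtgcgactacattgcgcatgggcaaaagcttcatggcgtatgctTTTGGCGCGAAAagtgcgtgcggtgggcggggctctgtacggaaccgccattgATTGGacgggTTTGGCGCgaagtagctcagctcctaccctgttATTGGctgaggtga
The mitotic genes Cdc20 (chr4:118437344-118437513, minus strand), Ube2c (chr2:164769759-164769928, plus strand) and Ccnb2 (chr9:70421555-70421724, minus strand) carry a CHR element and CCAAT boxes. The CHR match lies close to the start in Cdc20 and Ube2c, from position -18 and -29, and far from it in Ccnb2, from position -167.
Cdc20: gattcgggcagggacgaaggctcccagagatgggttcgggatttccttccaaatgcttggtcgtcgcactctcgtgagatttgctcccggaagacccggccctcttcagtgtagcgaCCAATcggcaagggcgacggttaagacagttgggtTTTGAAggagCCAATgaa
Ube2c: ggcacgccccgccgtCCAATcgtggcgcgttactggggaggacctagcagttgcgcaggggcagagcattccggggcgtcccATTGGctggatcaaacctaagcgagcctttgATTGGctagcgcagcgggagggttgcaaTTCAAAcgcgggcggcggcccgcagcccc
Ccnb2: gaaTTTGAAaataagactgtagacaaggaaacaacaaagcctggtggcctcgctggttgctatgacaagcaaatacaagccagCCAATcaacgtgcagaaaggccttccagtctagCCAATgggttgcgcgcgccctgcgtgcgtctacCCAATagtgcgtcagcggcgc
Cdk1 (chr10:69352913-69353082, minus strand), the kinase of mitosis, carries all 3 kinds.
Cdk1: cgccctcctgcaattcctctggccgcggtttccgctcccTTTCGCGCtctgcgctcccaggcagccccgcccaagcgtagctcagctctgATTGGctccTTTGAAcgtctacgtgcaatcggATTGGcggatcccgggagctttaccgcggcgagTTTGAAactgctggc

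Promoters were matched for 31 of the 37 genes and searched over 250 bases before each start. An E2F site was present in 5 of the 31 genes (16.1%), against 2.16% of the 27025 genes of the table. The 5 were Cdc6, Mcm5, Mcm6, Mcm7 and Cdk1, so that 4 of 7 matched replication licensing genes had one. A CCAAT box was present in 23 of 31 (74.2%), against 37.5% of all genes, and in every matched cyclin or kinase of G2 and mitosis (5 of 5). A CHR element was present in 8 of 31 (25.8%), against 18.3% of all genes. By role it was found in 2 of 5 cyclins and kinases, 2 of 8 kinetochore and chromosome genes and 1 of 3 spindle genes. Both genes of mitotic exit and 1 of 7 licensing genes had one, and both matched G1/S genes and the 4 genes of DNA synthesis had none. Beside a share of 18.3%, absence from so few genes says little. These are letter matches and not measured binding sites.

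**Figure D1:**
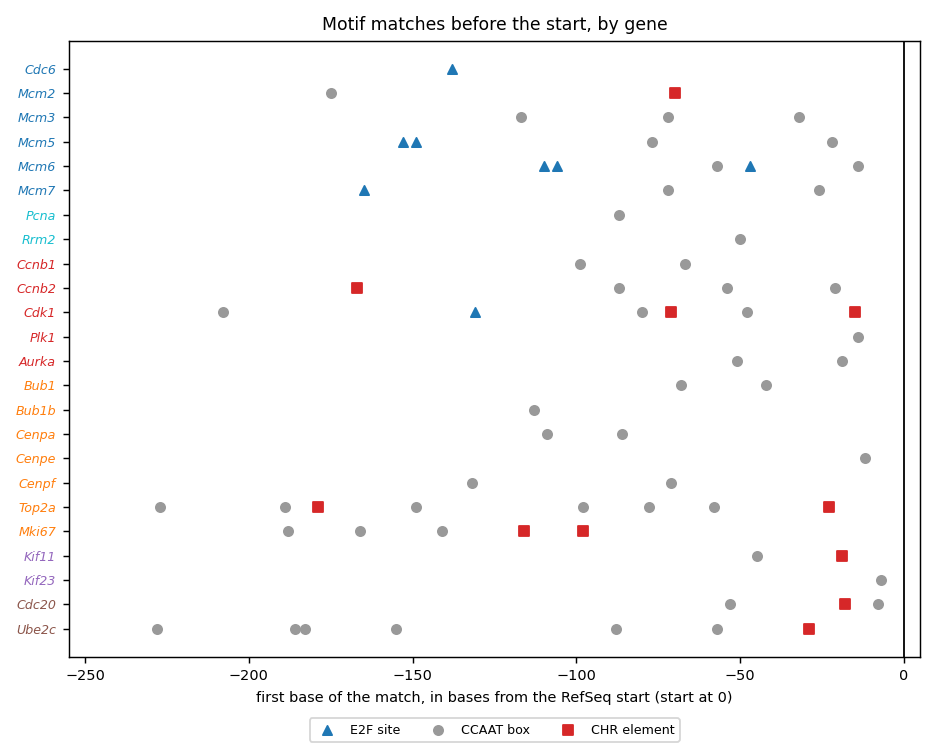
Places of E2F sites (triangles), CCAAT boxes (circles) and CHR elements (squares) in the 250 bases before the first listed RefSeq start, 1 row per gene with at least 1 match; the horizontal axis is the distance from the start in bases. E2F matches sit in Cdc6, Mcm5, Mcm6, Mcm7 and Cdk1, and CHR matches mainly in mitotic genes and Mcm2.

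Ligament fibroblast transcripts were read on every array, beside those of other tissues. Postn and Col1a1, which encode periostin and type I collagen, stood at levels of 8.45 to 8.62 and 8.62 to 8.88 on all arrays, and all 9 ligament fibroblast markers were well above background. Scx and Tnmd of the same list were dimmer, at 2.10 to 3.63 and 0.98 to 2.07. A level here is the log2 processed signal minus the 75th percentile of its array. Mkx was lower in Mkx-KO by a log2 difference of -2.10 at 10 weeks and -1.65 at 4 weeks. Markers of epithelium, blood and bone cells, muscle and nasal tissue were also present in varying amounts. Some were about as bright as Postn, such as Acp5 of osteoclasts (8.17 to 9.48) and Krt14 of epithelium (7.02 to 8.39), so the preparations were mixed. In bulk tissue, fewer cells of a type and less RNA per cell cannot be told apart.

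All 37 cell cycle genes were detected well above background on every array. Their levels moved little: the highest and lowest arrays were less than 2-fold apart in every member, which was also true of 82.8% of the 15504 genes measured on all arrays. Cenpa, the gene of the histone that marks centromeres, had the widest range, 1.84-fold. Its levels at 10 weeks were -0.20 (WT) and 0.41 (Mkx-KO), and those of the younger mice 0.62 (WT) and 0.68 (Mkx-KO). The 10-week WT array was thus low and the other 3 close together. Rrm2, which encodes the ribonucleotide reductase subunit that limits the supply of DNA building blocks, followed at 1.75-fold, and Ube2c, the ubiquitin-conjugating enzyme of mitotic exit, at 1.68-fold. The steadiest was Kif23, a motor of cytokinesis, whose 4 levels lay between -1.31 and -1.25. Ccne2, a cyclin of S phase entry, was read near the detection limit, with processed signals of 12.0 to 15.4, and its differences say little.

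**Figure D2:**
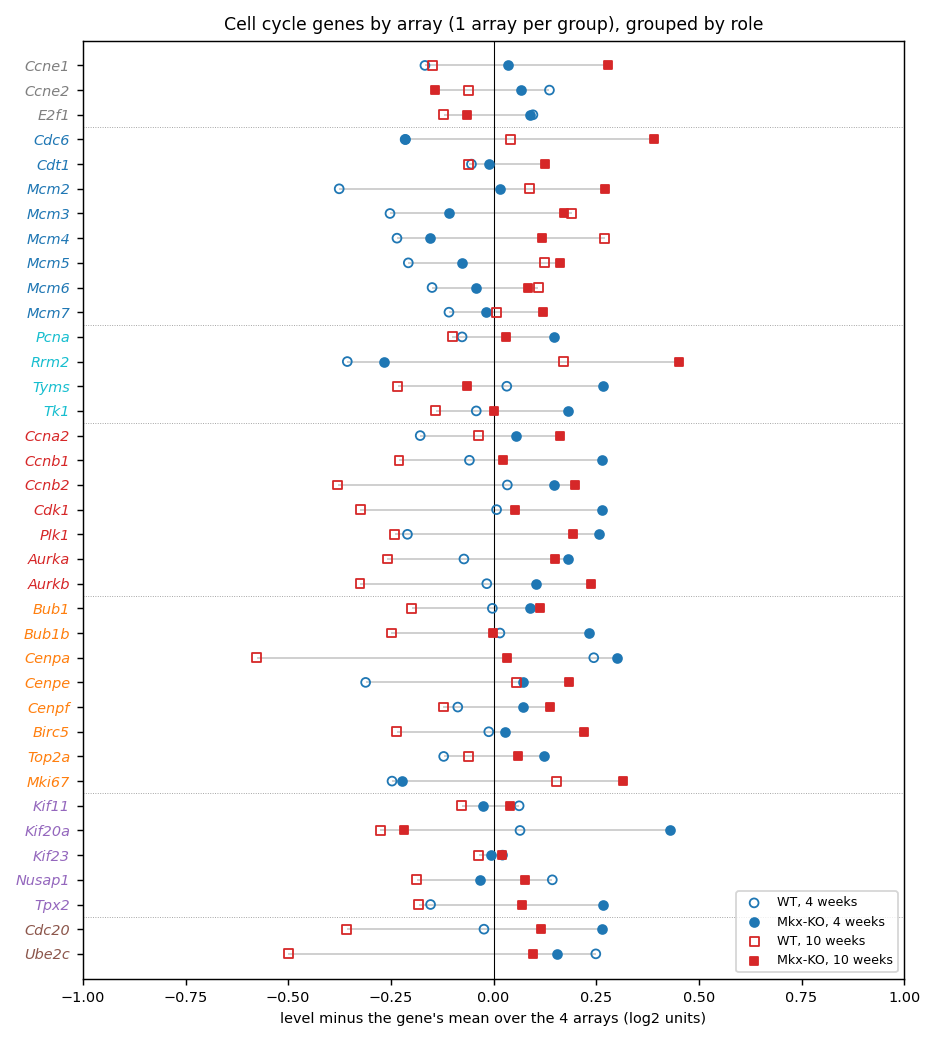
Level of each cell cycle gene on each array minus the mean of that gene over the 4 arrays (log2 units), 1 row per gene, coloured and separated by role; circles are 4 weeks, squares 10 weeks, open symbols WT and filled symbols Mkx-KO. Open squares (WT, 10 weeks) are the lowest symbol in most mitotic genes, and how often this holds over all genes was not counted. Both squares lie to the right of both circles in Mcm3, Mcm4, Mcm5, Mcm6 and Rrm2, as they do for 23.5% of all genes.

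Adult tissue with and without Mkx was compared first, at 10 weeks. Transcripts of mitosis were slightly higher in Mkx-KO as a group, but none reached 2-fold. Of the 37 genes, 33 had a difference above 0, against 51.5% of all 16457 genes measured at that age, and 4 below 0, against 48.5%. Their median was 0.20 against 0.01 for all genes. A 2-fold difference was seen in 0 of 37 genes, against 2.41% of all genes (1.04% higher and 1.37% lower). At 1.5-fold, Cenpa and Ube2c were higher, against 4.53% of all genes, and no member was lower, against 4.39%. The technical error of a single difference, from the scanner software, had a median of 0.20, and 8 genes were higher by over 2 such errors, against 7.18% of all genes. None was lower by as much, against 6.85%. These errors do not cover the spread between mice.

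The cyclins and kinases of G2 and mitosis differed by 0.20 to 0.58 at 10 weeks, all 7 on the higher side. Ccnb2, the cyclin B2 gene, had a level of 1.33 (WT) and 1.91 (Mkx-KO), which differ by 0.58 ± 0.20 (technical error). Aurkb, the kinase that corrects chromosome attachment, stood at -1.94 and -1.38, a difference of 0.56 ± 0.21. Plk1, a kinase of mitotic entry and spindle assembly, differed by 0.43, the centrosome kinase gene Aurka by 0.41, and Cdk1, which cyclin B activates, by 0.38. Ccnb1 and Ccna2, the other mitotic cyclins of the list, differed by 0.25 and 0.20. All 7 thus lay on the same side with modest sizes, and 3 of them exceeded 2 technical errors.

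The pair of genes that act with the anaphase-promoting complex, the ubiquitin ligase that ends mitosis, lay highest as a group at 10 weeks. Ube2c had a level of 0.82 (WT) and 1.42 (Mkx-KO), which differ by 0.60 ± 0.20. Cdc20, the activator of the ligase, stood at 1.20 and 1.67, a difference of 0.47 ± 0.20. Kinetochore, checkpoint and chromosome genes differed by 0.12 to 0.61, all 8 on the higher side. Cenpa led them at 0.61, and Birc5, the survivin gene of the Aurora B complex, differed by 0.46. The checkpoint kinase gene Bub1 and its relative Bub1b differed by 0.31 and 0.25, the kinetochore genes Cenpf and Cenpe by 0.26 and 0.13, and the proliferation marker Mki67 and the DNA-untangling enzyme gene Top2a by 0.16 and 0.12.

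Spindle and cytokinesis genes lay between 0.06 and 0.26, with a median of 0.12 against 0.25 for the kinetochore and chromosome genes. Nusap1 and Tpx2, which encode microtubule-binding spindle proteins, differed by 0.26 and 0.25. The motor genes Kif11, Kif20a and Kif23 differed by 0.12, 0.06 and 0.06.

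Genes of G1/S and of replication were mixed at 10 weeks. The licensing genes encode the MCM helicase and the factors that load it on DNA. They ranged from -0.15 (Mcm4) to 0.35 (the loading factor gene Cdc6), with 5 of 8 above 0. Cdt1, the other loading factor, differed by 0.19, Mcm2 by 0.18, Mcm7 by 0.11 and Mcm5 by 0.04, and Mcm3 and Mcm6 by -0.02 and -0.03. The genes of DNA synthesis, Rrm2, Tyms, Tk1 and Pcna, differed by 0.28, 0.17, 0.14 and 0.13. Ccne1, the cyclin E1 gene, differed by 0.43 ± 0.20, E2f1 by 0.06 and Ccne2 by -0.08. The list median minus that of all genes stayed between 0.14 and 0.23 under the other scalings, probe choices and filters.

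Markers of other cells moved in the same comparison, and ligament fibroblast markers were higher in Mkx-KO in 6 of 9 (median 0.14). At 10 weeks all 9 neutrophil precursor markers, all 11 erythroid markers and 5 of 6 measured B cell precursor markers were higher in Mkx-KO, with medians of 0.82, 0.65 and 0.65, while 10 of 11 epithelial markers were lower, with a median of -0.72. Larger shifts upward were those of mature B cell markers (7 of 7 higher, median 1.21) and osteoclast markers (7 of 7, median 1.07). Skeletal muscle markers were higher in 6 of 7 (median 0.51), osteoblast markers in 6 of 8 (0.18) and endothelial markers in 6 of 6 (0.15), nasal markers in 2 of 7 (-0.20), cartilage markers in 2 of 5 (-0.03) and T cell markers in 3 of 6 (0.05). The summed level of the neutrophil precursor list was 133 (WT) and 227 (Mkx-KO), and that of the epithelial list 849 and 469. The B cell recombination genes Rag1 and Rag2 were not well above background on any array. The part of these cells in the differences of the cell cycle genes was not tested.

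In young mice, at 4 weeks, most differences were again on the higher side, with a lower median. Of the 37 genes, 30 were above 0, against 58.8% of all 15686 genes measured, and 7 below, against 41.2%. Above the all-gene median of 0.06, as 50% of genes are by definition, lay 27 members, and between 24 (quantile normalization) and 32 (no filter on dim probes) in other settings, where the list median minus that of all genes was 0.06 to 0.16 in place of 0.08. The members' median was 0.13. No member was 2-fold apart, against 3.78% of all genes (0.472% higher and 3.31% lower), nor 1.5-fold apart, against 2.95% higher and 6.9% lower. Higher by over 2 technical errors were 2 members, against 6.78% of all genes, and lower 0, against 8.85%.

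Plk1 led at 4 weeks, with levels of 0.53 (WT) and 1.0 (Mkx-KO), which differ by 0.47 ± 0.20. Tpx2 followed, at -0.93 and -0.51, a difference of 0.42 ± 0.21. The other cyclins and kinases of mitosis differed by 0.11 (Ccnb2) to 0.32 (Ccnb1). On the brightest probe all 7 of that group thus lay above 0 at both ages. Further probes read -0.02 and 0.17 for Ccnb1, 0.03 for Ccna2 and 0.13 for Aurkb at 4 weeks. DNA synthesis genes differed by 0.09 to 0.23. Licensing genes ranged from -0.0011 (Cdc6) to 0.39 (Mcm2). The kinetochore and chromosome genes lay between 0.03 (Mki67) and 0.38 (Cenpe). Spindle genes were split, with Kif20a at 0.36 and Nusap1 at -0.18. Ube2c and Cdc20, side by side at 10 weeks, differed by -0.10 and 0.29, and Ccne1, E2f1 and Ccne2 by 0.20, -0.01 and -0.07.

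Of the marker lists, mature B cells were again higher in Mkx-KO at 4 weeks (5 of 6, median 1.12), while several others lay on the opposite side from 10 weeks. Neutrophil precursor markers were all 9 lower in Mkx-KO with a median of -1.29, erythroid markers all 11 lower with a median of -0.37, skeletal muscle markers all 7 lower with a median of -1.27, and 10 of 11 epithelial markers were higher with a median of 0.40. The summed level was 103 (WT) and 38.9 (Mkx-KO) for neutrophil precursors, and 337 and 593 for epithelium. B cell precursor markers were lower in 4 of 6 (median -1.13) and osteoblast markers in 5 of 8 (-0.28), and osteoclast markers had a median of 0.02. Ligament fibroblast markers were higher in 5 of 9 (median 0.05). Nasal markers had the largest median of the lists, -6.30 (4 of 5 lower), with Omp, the olfactory marker protein gene, at 4.87 and -3.26. Their part in the cell cycle differences was not tested.

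The genotype comparisons at 10 and 4 weeks share no array, so each gene can be set side by side. A difference above 0 at both ages was found in 27 of the 37 genes (73.0%), against 29.1% of the 15504 genes measured on all arrays. Among these members, Ccnb1, Cenpf and Mcm7 each had a further probe below 0 at 4 weeks, and Tyms had one at 10 weeks. Only Ccne2 was below 0 at both ages, against 19.0% of all genes. With the median of all genes in place of 0, 24 of 37 (64.9%) were above it at both ages, against 23.8% of all genes. The difference between the ages was not tested for single genes. It was widest in Ube2c, whose genotype difference at 10 weeks was larger by 0.69 ± 0.29 (technical error) than at 4 weeks, then in Cenpa (0.55) and Ccnb2 (0.47). In each of these 3 genes the WT array of 10 weeks had the lowest of the 4 levels. The share of all genes with that array lowest was not counted.

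**Figure D3:**
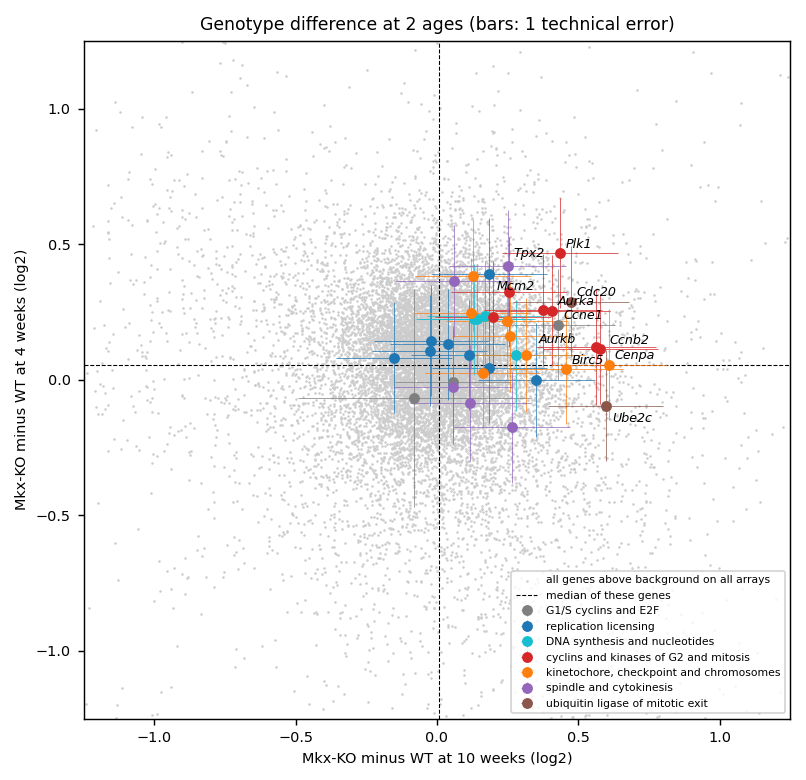
Mkx-KO minus WT at 10 weeks (horizontal) against 4 weeks (vertical), in log2 units, for the 37 cell cycle genes coloured by role over all genes measured on the 4 arrays (grey; genes beyond the axes are not drawn). Bars are 1 technical error and dashed lines the all-gene medians; 27 of 37 members lie above 0 on both axes, and none exceeds 0.61 on either axis.

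Adult and young tissue were then compared within each genotype. Replication licensing genes were higher at 10 weeks in both genotypes relative to other genes, whereas mitotic genes did not share a direction. These age comparisons share no array with each other. The scaling matters here: the median over all genes was -0.10 in WT and -0.15 in Mkx-KO, but 0.26 and 0.14 with the scaled values of the deposited table, so age differences are read against that median. By this reading 19 of 37 genes were above the all-gene median in WT and 27 in Mkx-KO, against 50% of all genes by definition. Without the filter on dim probes the Mkx-KO count was 21, and the list median minus that of all genes was 0.06 in place of 0.21. In both genotypes 18 members (48.6%) were above it, against 36.9% of all genes, and 9 (24.3%) below it, against 37.7%. Read against 0, in WT 13 members were higher, against 40.5% of all genes, and 24 lower, against 59.5%. In Mkx-KO 21 were higher, against 37.7% of all genes, and 16 lower, against 62.3%. In WT no member was 2-fold apart, against 8.84% of all genes (5.01% higher and 3.83% lower). In Mkx-KO none was, against 10.1% (6.25% higher and 3.84% lower). At 1.5-fold, Cenpa and Ube2c were lower in WT, against 12.8% of all genes, and none was higher, against 10.5%. In Mkx-KO, Cdc6 and Rrm2 were 1.5-fold higher, against 12.0% of all genes, and Kif20a was lower, against 15.5%. Past 2 technical errors, 4 members were higher in WT, against 14.1% of all genes, and 3 lower, against 20.7%. In Mkx-KO 3 were higher, against 15.4%, and 1 lower, against 25.8%.

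All 8 licensing genes lay above the all-gene median in both genotypes, also in the other scalings and filters and with the mean over probes. Second, dim probes lay below the WT median of -0.10 for Mcm6 (-0.18) and Mcm7 (-0.22). Mcm4, a subunit of the replicative helicase, had WT levels of 2.47 at 4 weeks and 2.98 at 10 weeks, which differ by 0.51 ± 0.20, and Mkx-KO levels of 2.55 and 2.82, which differ by 0.27. Mcm2 differed by 0.46 in WT and 0.26 in Mkx-KO, Mcm3 by 0.44 and 0.28, Mcm5 by 0.33 and 0.24, Mcm6 by 0.26 and 0.13, and Mcm7 by 0.12 and 0.14. For Mcm2, Mcm3, Mcm4, Mcm5, Mcm6 and Mcm7 both 10-week arrays were above both 4-week arrays. With Cdc6, Rrm2 and Mki67 this held for 9 of 37 members (24.3%), close to the 23.5% of all genes. The reverse held for 7 members (18.9%), against 45.6% of all genes. The loading factor gene Cdc6 stood at -1.27 and -1.01 in WT, a difference of 0.26, and at -1.27 and -0.66 in Mkx-KO, a difference of 0.61. Cdt1 differed by -0.01 and 0.14.

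Rrm2 and Mki67 lay highest of the remaining genes. Rrm2 stood at 2.31 and 2.83 in WT, a difference of 0.53 ± 0.20, and at 2.40 and 3.11 in Mkx-KO, a difference of 0.72 ± 0.20, which became 1.01 and thus just over 2-fold with the deposited scaled values. Mki67 stood at 2.97 and 3.37 in WT, a difference of 0.40, and its Mkx-KO levels of 3.0 and 3.54 differ by 0.54. The other DNA synthesis genes were below these, with Pcna at -0.02 and -0.12, Tk1 at -0.10 and -0.18, and Tyms, the thymidylate synthase gene, at -0.27 and -0.33.

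Several mitotic genes lay lowest in WT at 10 weeks, where 59.5% of all genes were lower than at 4 weeks. Cenpa differed by -0.82 ± 0.21 between the ages in WT and by -0.27 in Mkx-KO, and Ube2c by -0.75 ± 0.20 and -0.06. Ccnb2 differed by -0.41 in WT and 0.05 in Mkx-KO, Cdc20 by -0.33 and -0.15, Cdk1 by -0.33 and -0.21, and Nusap1 by -0.33 and 0.11. The WT values here and the genotype values at 10 weeks share the 10-week WT array. Kif20a, a motor of cytokinesis, differed by -0.34 in WT and by -0.65 ± 0.21 in Mkx-KO, with the highest level, 0.09, in Mkx-KO at 4 weeks. The median of the cyclins and kinases minus that of all genes was -0.09 in WT and 0.12 in Mkx-KO, and without the filter on dim probes -0.03 in both. That of the kinetochore and chromosome genes was -0.02 and 0.20, or 0.04 and 0.05 without that filter, and within that group Mki67 and Cenpe (0.37 and 0.11) were higher at 10 weeks while Bub1b (-0.26 and -0.23) was lower. The remaining members are E2f1 (-0.22 and -0.15), Ccne2 (-0.20 and -0.21) and Ccne1 (0.02 and 0.24) of the G1/S group, and Ccnb1 (-0.17 and -0.24), Aurka (-0.19 and -0.03), Aurkb (-0.31 and 0.13), Plk1 (-0.03 and -0.06) and Ccna2 (0.14 and 0.11) of the mitotic kinases and cyclins. Kif11 differed by -0.14 and 0.06, Kif23 by -0.06 and 0.03, and Tpx2 by -0.03 and -0.20. Bub1, Birc5, Cenpf and Top2a lay between -0.22 and 0.19 in both.

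**Figure D4:**
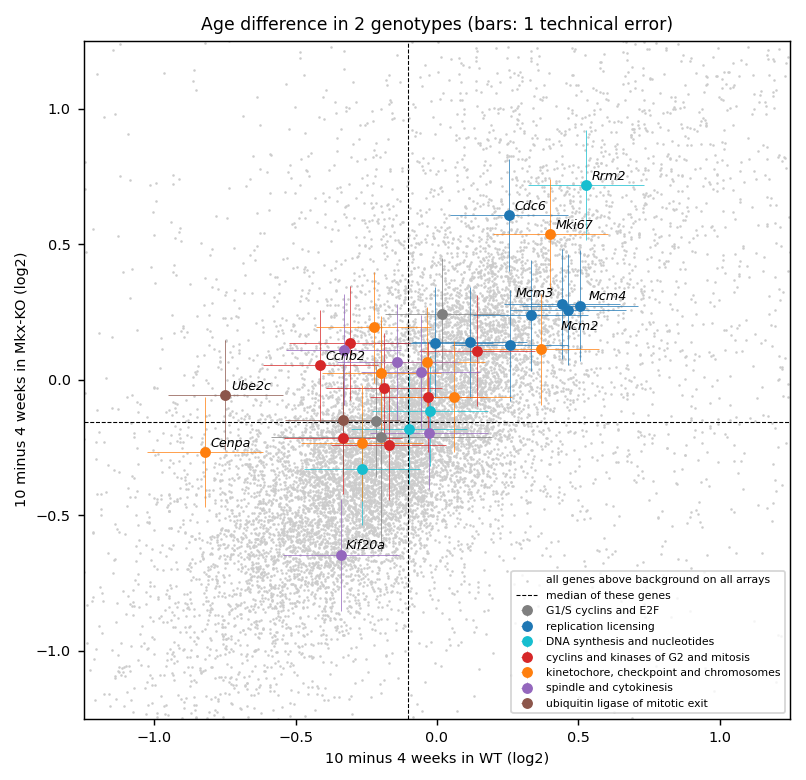
Difference between 10 and 4 weeks in WT (horizontal) against Mkx-KO (vertical), in log2 units, for the 37 cell cycle genes coloured by role over all genes measured on the 4 arrays (grey; genes beyond the axes are not drawn). Bars are 1 technical error and dashed lines the all-gene medians; the licensing genes (blue) all lie above and to the right of both medians, and Cenpa and Ube2c lie farthest left.

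Markers of other cells also differed between the ages. Ligament fibroblast markers were lower at 10 weeks in 8 of 9 in WT (median -0.21) and in 6 of 9 in Mkx-KO (-0.12). In WT all 11 epithelial markers were higher at 10 weeks with a median of 1.28, and neutrophil precursor and erythroid markers had medians of 0.36 and 0.16. Osteoclast markers were lower at 10 weeks in 7 of 7 (median -1.39), B cell precursor markers in 5 of 6 (-1.17), mature B cell markers in 4 of 6 (-0.67) and osteoblast markers in 6 of 8 (-0.46). In Mkx-KO the epithelial median was 0.06, while all 9 neutrophil precursor and all 7 skeletal muscle markers were higher, with medians of 2.47 and 2.37, and the erythroid median was 0.87. Nasal markers were higher in 5 of 5 (median 6.09) and B cell precursor markers in 5 of 6 (0.65), while osteoclast markers were lower in 6 of 7 (-0.32) and mature B cell markers in 4 of 7 (-0.50). The part of these cells in the age differences was not tested.

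**Figure D5:**
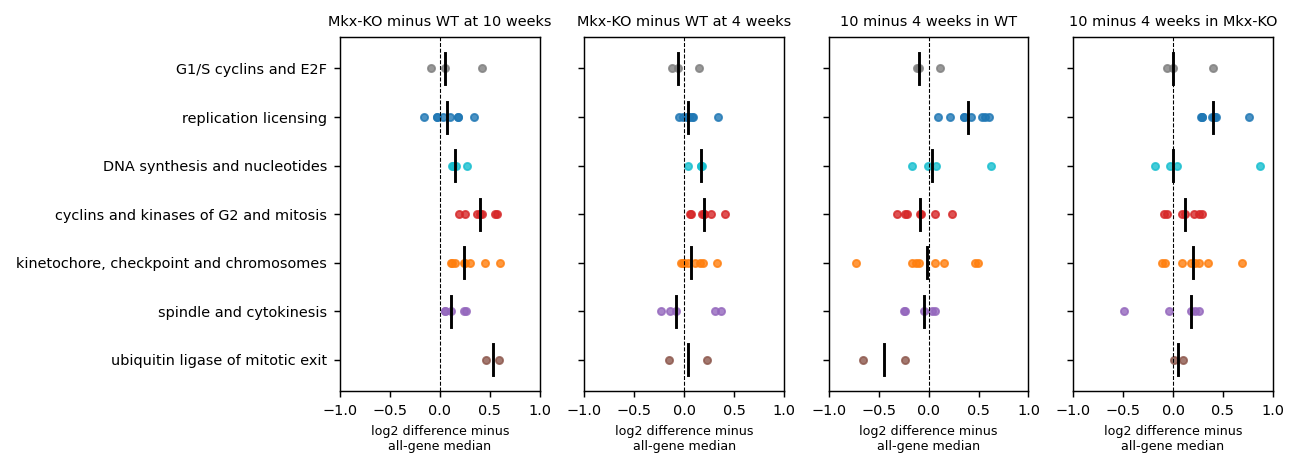
Log2 difference of each cell cycle gene minus the median of all genes, by role (rows) and comparison (panels); points are genes and black bars role medians. Mitotic cyclins and kinases lie to the right of 0 in both genotype panels, and licensing genes lie to the right of 0 in both age panels, with medians of 0.39 in WT and 0.40 in Mkx-KO.

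Genotype and age were also fitted together over the 4 arrays with limma, the one fit that leaves a residual degree of freedom. The residual is the change of the genotype difference between the ages. The SE and p-values of the fit therefore do not measure the spread between mice. With simulated age effects, the fit called 0 of 50 genes changed by a log2 difference of 1. It called 0 of 50 changed by 2, and 30 of 50 changed by 4. Every member was less than 2-fold apart over the arrays, so a lack of calls cannot show that members did not differ. None of the 37 genes passed an adjusted p of 0.05 for age or for genotype, and none of all 16795 genes did (0.0%), except 31 genes for age after normexp background correction, no member among them. At an unadjusted p under 0.05 stood 2 of 37 members for age, against 24.3% of all genes, and 1 of 37 for genotype, against 2.71% of all genes. The age count tests against 0 and moved with the scaling. It was 10 of 37 members with the deposited scaled values, against 25.7% of all genes. After quantile normalization it was 6, against 23.4%, and without the filter on dim probes 1, against 17.2%. Rrm2 had the smallest p for age, with a limma estimate of 0.62 ± 0.14 (SE, higher at 10 weeks in both genotypes) and an adjusted p of 0.179, or between 0.104 and 0.273 for the smallest member under the other settings. Mki67 followed at 0.47 ± 0.13 with an adjusted p of 0.199 in limma. Plk1 had the smallest p for genotype, with a limma estimate of 0.45 ± 0.13 (higher in Mkx-KO at both ages) and an adjusted p of 1.0.

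Of 137 further genes in 8 lists, covering G1 regulators, inhibitors, E2F and DREAM factors, replication, kinetochore, condensin, spindle and mitotic regulators, 135 were measured in each genotype comparison. None was 2-fold apart by genotype, against 2.41% of all genes at 10 weeks and 3.78% at 4 weeks. Their median was 0.10 at 10 weeks, with 88 above 0, against 51.5% of all genes and a median of 0.01. At 4 weeks it was 0.12, with 96 above 0, against 58.8% of all genes and a median of 0.06. The lists with the highest medians were the other mitotic entry and exit genes at 10 weeks (0.21, with 16 of 18 above 0) and the other spindle genes at 4 weeks (0.26, with 17 of 20 above 0). Foxm1, the factor that drives mitotic genes, differed by 0.13 at 10 weeks and 0.42 at 4 weeks, and the spindle midzone gene Prc1 by 0.26 and 0.47. Cdc25b, the phosphatase that activates Cdk1, differed by 0.63 at 10 weeks and -0.70 at 4 weeks. The E2F family member E2f3 was well above background in Mkx-KO but not in WT at 10 weeks. Its levels there were -3.55 and -4.81, a 2.38-fold gap to a reading too dim to be trusted. The WT level at 4 weeks was -3.37, so the dim reading was that of the 10-week WT array.

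By age, 1 of 134 further genes measured in WT was 2-fold higher at 10 weeks, against 5.01% of all genes, and 0 lower, against 3.83%. In Mkx-KO 3 of 136 were higher, against 6.25%, and 2 lower, against 3.84%. Above the all-gene median lay 81 of 134 in WT and 85 of 136 in Mkx-KO, against 50% of all genes by definition. Wee1 was at least 2-fold apart by age in both genotypes on its brightest probe, and no other of these genes was in that setting. Wee1, which encodes the kinase that holds Cdk1 back, stood at 0.32 at 4 weeks and 1.38 at 10 weeks in WT, a difference of 1.06 ± 0.20, and at -0.13 and 1.18 in Mkx-KO, a difference of 1.30 ± 0.20. In WT it was 0.96 after normexp background correction and 0.97 over the mean of its probes, just under 2-fold. In Mkx-KO the origin recognition gene Orc1 and the E2F repressor gene E2f8 were also higher at 10 weeks, by 1.5 and 1.07, against 0.81 and 0.55 in WT; after normexp the Mkx-KO values were 0.73 and 0.86. The WT value of Orc1 ranged from 0.22 after normexp to 1.17 with the deposited scaled values and 1.70 over the mean of its probes. Orc1 also gave a genotype difference of 0.61 at 10 weeks on its brightest probe and -0.34 over the mean of its probes. The Cdk inhibitor genes Cdkn1a (p21) and Cdkn1c (p57) were lower at 10 weeks in Mkx-KO, by differences of -1.21 and -1.08, against -0.69 and -0.94 in WT. The Cdkn1a value was -0.40 over the mean of its probes, and both were under 2-fold after quantile normalization (-0.99 and -0.83) and with the deposited scaled values (-0.92 and -0.79). The Cdkn2a locus differed by 0.67 in WT and 0.75 in Mkx-KO. Cdk4 and Ccnd2, a kinase and a cyclin of G1, were lower at 10 weeks, by -0.49 and -0.45 in WT and by -0.93 and -0.58 in Mkx-KO. The ubiquitin-conjugating gene Ube2s, which extends chains begun by Ube2c, differed by -0.65 and -0.68.

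Second probes bore on 14 of the 37 genes. These had 16 further probes, of which 13 had the sign of the brightest probe for genotype at 10 weeks and 10 at 4 weeks. For age, 13 of 16 did so in each genotype. The median gap to the brightest probe was 0.10 and 0.14 for genotype at 10 and 4 weeks, and 0.09 and 0.17 for age in WT and Mkx-KO. Aurkb differed by 0.56 and 0.52 on its 2 probes at 10 weeks, Birc5 by 0.46 and 0.56, and Cdc20 by 0.47 and 0.37. The signs differed at 10 weeks for Mcm6 (-0.03 and 0.45), Tyms (0.17 and -0.03) and Kif23 (0.06 and -0.02). At 4 weeks a further probe had the other sign for Ccnb1 (0.32 and -0.02), Cenpf (0.16 and -0.0011) and Kif23 (-0.03 and 0.18). The same held for Mcm3 (0.14 and -0.16), Mcm6 (0.11 and -0.02) and Mcm7 (0.09 and -0.10). The widest gap for age in WT was that of Mcm6, with 0.26 on the bright and -0.18 on the dim probe for age in WT. The other 23 genes, Cenpa, Ube2c, Plk1 and Rrm2 among them, rest on 1 named probe.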

How the data were processed

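The 4 arrays, of 1 slide per the file headers, were Agilent one-colour and held 1 RNA preparation per genotype and age. Spot intensity was read with Agilent Feature Extraction 11.5.1.1, per the submitters' processing notes and the file headers, and the deposited processed signal is background-subtracted and spatially detrended, on a linear scale. The deposited series table holds the same intensity times 1 factor per array, 1.54 to 2.08, whose origin is not given in the sources used here. No spot was saturated, and 61.8% to 66.6% of spots per array were well above background.

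Probes were named by RefSeq accession (32994 of 56605 matched) and the brightest probe stood for its gene. Outlier spots were left out. The log2 processed signal minus the 75th percentile of the array gave the level. A gene was measured in a comparison when well above background on both arrays, and called at 2-fold. Where it was so on 1 array only, the difference was taken to the lowest level well above background on the other, or to the gene's own level there where that was higher. The technical error of a difference joins the software's error estimates of both signals. An additive model of genotype and age was fitted with limma 3.58.1 (R 4.3.3) to the genes detected on 2 or more arrays, p-values being adjusted by Benjamini-Hochberg, and the script was tested on simulated data. Every member is named. Other cell cycle genes are named when 2-fold apart the same way in both comparisons of a kind, or among the 4 with the largest mean difference of their list. Postn, Col1a1, Scx, Tnmd, Acp5, Krt14, Omp, Rag1, Rag2, Mkx and E2f3 were chosen after their values were seen. The members and lists were chosen with earlier results of these data known. Alternatives were normexp correction on median spot and background intensity with an offset of 50 (the planned mean signal is not a column of the scan data used here), quantile normalization, median centring, the deposited table, the mean over probes, other filters on dim probes, other fold thresholds, and eBayes with a trend or robust. Other steps used Python 3.11.15, numpy 2.4.6 and pandas 2.3.3; figures used matplotlib 3.10.9.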

Additional observations from a re-analysis of the deposited data

How the results depend on the processing

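Of 154 recomputed summary values for the cell cycle genes, 149 stayed within 1.5 times the count or within the median technical error (0.20) of the median difference. That error is wide beside medians this small, and a 2-fold count of 0 that stayed 0 was also scored as unchanged. The 149 of 154 therefore say little about stability. The others were counts that start from 0. With a threshold of 1.5-fold in place of 2-fold, 2 genes were higher in Mkx-KO at 10 weeks and 0 at 4 weeks. With that threshold 2 genes were lower at 10 weeks in WT, and in Mkx-KO 2 were higher and 1 lower. With the deposited scaled values 1 gene, Rrm2, was 2-fold higher at 10 weeks in Mkx-KO. That table also moved age differences upward for all genes, so 34 of 37 members were above 0 in WT in place of 13, and 35 in place of 21 in Mkx-KO, while 19 and 27 were above the all-gene median, as before. Counts of limma calls say nothing about stability, since the fit has 1 residual degree of freedom. Without the filter on dim probes, 21 of 37 members in place of 27 were above the all-gene median for age in Mkx-KO. No paired analysis was possible because the labels give 1 array per group and no replicate numbers. With 1 array per group no replicate could be left out, and dim probes such as that of Ccne2 limit what small differences can show.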
